A study of Homo sapiens with 24 samples.

Results

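The 10 epithelial keratin genes described here were followed across all libraries of the series. They comprised 6 type II genes (KRT5, KRT7, KRT8, KRT80, KRT81 and KRT86) and 4 type I genes (KRT17, KRT18, KRT19 and KRT20). The genes were taken by name, and all 10 were found among the 60641 gene symbols that the 24 libraries share. The libraries were RNA-seq of A549, a human lung adenocarcinoma line, and HCT116, a human colorectal carcinoma line, in 8 groups of 3. In A549 a wild type (WT B) stood beside MSTRG.4401.1 KO and MSTRG.2513.6 KO. In HCT116 there were wild types with A numbers (WT A) and with B libraries (WT B), beside KOs of MSTRG.4401.1, of MSTRG.2513.6 and, in that line alone, of MSTRG.34636.7. In a KO, CRISPR/Cas9 had removed the genomic sequence coding for the DNA-binding domain (DBD) of the named noncoding transcript, and no other allele, agent or time is given for any group. The sources used here do not say whether a KO is 1 clone or whether the 3 libraries of a group came from separate cultures, so the p-values measure only the spread between these libraries, which may be technical. The deletions themselves were not checked here on counts of the 3 transcripts. The control of MSTRG.34636.7 KO was WT A, which shares its numbering, and that of every other KO was WT B of its line.

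Keratins are the intermediate filament proteins of epithelial cells. A keratin filament is built from a type I chain paired with a type II chain, and a chain without a partner is usually degraded, so the balance of both types is a feature of an epithelial cell. KRT8 and KRT18 are the founding pair of simple epithelia such as gut and lung lining. KRT7 and KRT19 join them in many glandular and ductal epithelia, and KRT20 in differentiated intestinal cells. Pathologists read the presence of KRT7 and KRT20 to help place the origin of a carcinoma. KRT5 and KRT17 belong to basal and stratified epithelia, KRT80 to several epithelia, and KRT81 and KRT86 to the hair shaft, although hair keratins are also found in some carcinomas.

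In the GENCODE v44 annotation of hg38, the 6 type II genes and KRT18 lie in the keratin cluster of chromosome 12, and KRT17, KRT19 and KRT20 in that of chromosome 17. The order along chromosome 12 begins with KRT80 (chr12:52168996-52192014, minus strand), KRT7 (chr12:52232520-52252186, plus strand), KRT86 (chr12:52249300-52309163, plus strand) and KRT81 (chr12:52285913-52291534, minus strand). KRT5 (chr12:52514575-52520530, minus strand) follows, and KRT8 (chr12:52897187-52949954, minus strand) and KRT18 (chr12:52948871-52952906, plus strand) close the cluster. On chromosome 17, KRT20 spans chr17:40875889-40885242, KRT19 chr17:41523617-41528308 and KRT17 chr17:41619442-41624842, all on the minus strand. Some of these genes share sequence, which bears on how their reads can be assigned. KRT81 lies wholly within the span of KRT86 on the other strand, KRT7 and KRT86 overlap by 2887 bp on the same strand, and KRT8 and KRT18 overlap by 1084 bp on opposite strands. Whether the counting used the strand is not given in the sources used here, so counts of these genes are uncertain to that extent. Of the 100-base words of the canonical KRT81 transcript, 30.3% also occur in transcripts of other genes, mostly KRT86, and for KRT86 the share is 32.0%. KRT18 shares 18.5% of its words with KRT8 transcripts and KRT7 shares 8.32% with its antisense gene KRT7-AS, whereas KRT19, KRT20 and KRT80 share none. Words were matched on either strand, and both of these pairs overlap on opposite strands. KRT8 shares 7.12% of its words, most of them with KRT8P3. Over 1455 aligned bases, the coding sequences of KRT81 and KRT86 are 93.3% identical, and 605 of these bases in a row are the same. Since results on the hair keratins turn on telling these genes apart, a stretch of 120 coding bases is shown, read from GENCODE transcripts. Among stretches of this length aligned without a gap it has the most differing bases, and these 19 are in capitals.
KRT81: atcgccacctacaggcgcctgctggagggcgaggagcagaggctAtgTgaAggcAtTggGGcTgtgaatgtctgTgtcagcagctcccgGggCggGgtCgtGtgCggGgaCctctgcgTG
KRT86: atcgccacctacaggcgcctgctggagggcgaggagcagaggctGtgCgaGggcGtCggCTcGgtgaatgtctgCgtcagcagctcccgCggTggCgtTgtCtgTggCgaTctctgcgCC
Both run 5′ to 3′ and cover coding bases 1207 to 1326. In KRT81 they lie in exons 7 to 9 of 9 (chr12:52287102-52287142, chr12:52286791-52286822 and chr12:52286447-52286493). In KRT86 they lie in exons 9 to 11 of 11 (chr12:52306240-52306280, chr12:52308233-52308264 and chr12:52308404-52308450).

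The libraries held between 25799359 and 102261808 counts, at which 3 counts correspond to 0.0293 to 0.116 CPM (counts scaled to a common library total). Libraries S8 and S9 went against their label, and this precedes all results. Both are labelled HCT116 MSTRG.2513.6 KO, yet r of their log2(CPM + 1) values over genes was 0.971 to 0.995 with A549 libraries and 0.916 to 0.927 with the other HCT116 libraries, while S11 of the same label had r of 0.972 to 0.987 with HCT116. CDX2, a transcription factor of intestinal epithelium, was at 0.636 and 0.406 CPM in S8 and S9 and at 18.2 CPM in S11. Not all colon markers had this order. CDH17 was at 5.21 and 7.40 CPM in S8 and S9 and at 1.76 CPM in S11, and EPHB2 at 99.6, 110 and 59.2 CPM. In A549 WT B these 2 genes averaged 6.41 and 141 CPM, and in HCT116 WT B 0.561 and 43.6 CPM. The labels were kept, values of this group are given by library, and its fit is given with and without both. Epithelial markers were expressed in both lines (in HCT116 and A549 WT B, EPCAM averaged 182 and 2.68 CPM and CDH1 99.9 and 64.0 CPM), and the 9 lung markers summed to at most 9.74 CPM in any library, with NKX2-1, a factor of lung epithelium, at no more than 0.265 CPM in A549 WT B, so the labelled lung origin was not visible in these genes. Summed colon markers spanned 95.7 to 101 CPM for HCT116 WT B, with 165 to 176 CPM for A549 WT B, and of these CDX1 was at 0 in both. Summed fibroblast, endothelial and leukocyte markers reached at most 79.3, 9.44 and 12.9 CPM in any library, and their part in the results was not tested.

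Both wild types had different keratin sets. A549 WT B carried KRT7, KRT8, KRT18 and KRT81 at high levels, and HCT116 WT B carried KRT8, KRT18 and KRT19. In A549 WT B, KRT7 was at 2441, 2340 and 2377 CPM in S20, S21 and S22. In HCT116 WT B it was at 23.6, 15.6 and 14.9 CPM in S12, S13 and S14, so that all A549 libraries lay above all HCT116 libraries. The log2(fold change) of KRT7, A549 against HCT116, was 7.31 ± 0.22 (SE, adjusted p = 2.99e-07, edgeR quasi-likelihood test, Benjamini-Hochberg adjusted over 27882 genes). KRT19 had the opposite order, with 19.7, 21.996 and 18.3 CPM in A549 and 769, 732 and 700.1 CPM in HCT116, a log2(fold change) of -4.93 ± 0.11 (SE, adjusted p = 8.84e-08). KRT81 was at 888, 772 and 1021 CPM in A549 and at 0.477, 0.468 and 0.349 CPM in HCT116, which is 21 to 30 counts per library. Its log2(fold change) of 11.27 ± 0.18 (SE, adjusted p = 3.71e-08) was the largest among the 8 genes tested. The same direction held for KRT86 at 6.71 ± 0.31 (SE) and for KRT80 at 4.03 ± 0.09 (SE), both from A549 levels of 65.5 ± 6.71 and 216 ± 7.63 CPM (SD, n = 3).

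The founding pair differed less between the lines. KRT8 was at 2293, 2012 and 2260 CPM in A549 WT B and at 1785, 1778 and 1641 CPM in HCT116 WT B, a log2(fold change) of 0.60 ± 0.09 (SE, adjusted p = 0.00107) that passed the FDR threshold of 0.1 but not the threshold of 1 on |log2(fold change)|. KRT18 was at 1903, 1809 and 1746 CPM against 843, 881 and 855 CPM, a log2(fold change) of 1.35 ± 0.09 (SE, adjusted p = 1.21e-05). KRT20 was near the detection limit in both lines, at 0, 0.0841 and 0.168 CPM for A549 WT B, with 0.381, 0.795 and 0.682 CPM for HCT116 WT B. It was called lower in A549 (log2(fold change) -2.71 ± 0.82, SE, adjusted p = 0.0239), but it entered the test only through its HCT116 counts. With a gene called at FDR < 0.1 and |log2(fold change)| > 1, 7 of the 8 keratin genes tested were called in this comparison, 5 higher and 2 lower in A549. Of all genes tested, 35.7% were called, 17.2% higher and 18.5% lower in A549. The median log2(fold change) was 2.69 over the 8 genes and -0.02 over all genes. KRT5 and KRT17 did not pass the expression filter in any main comparison of whole groups. KRT5 had 0 to 17 counts per library and was at 0 in 12 of 24, and KRT17 had 0 to 22 counts and was at 0 in 9.

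**Figure D1:**
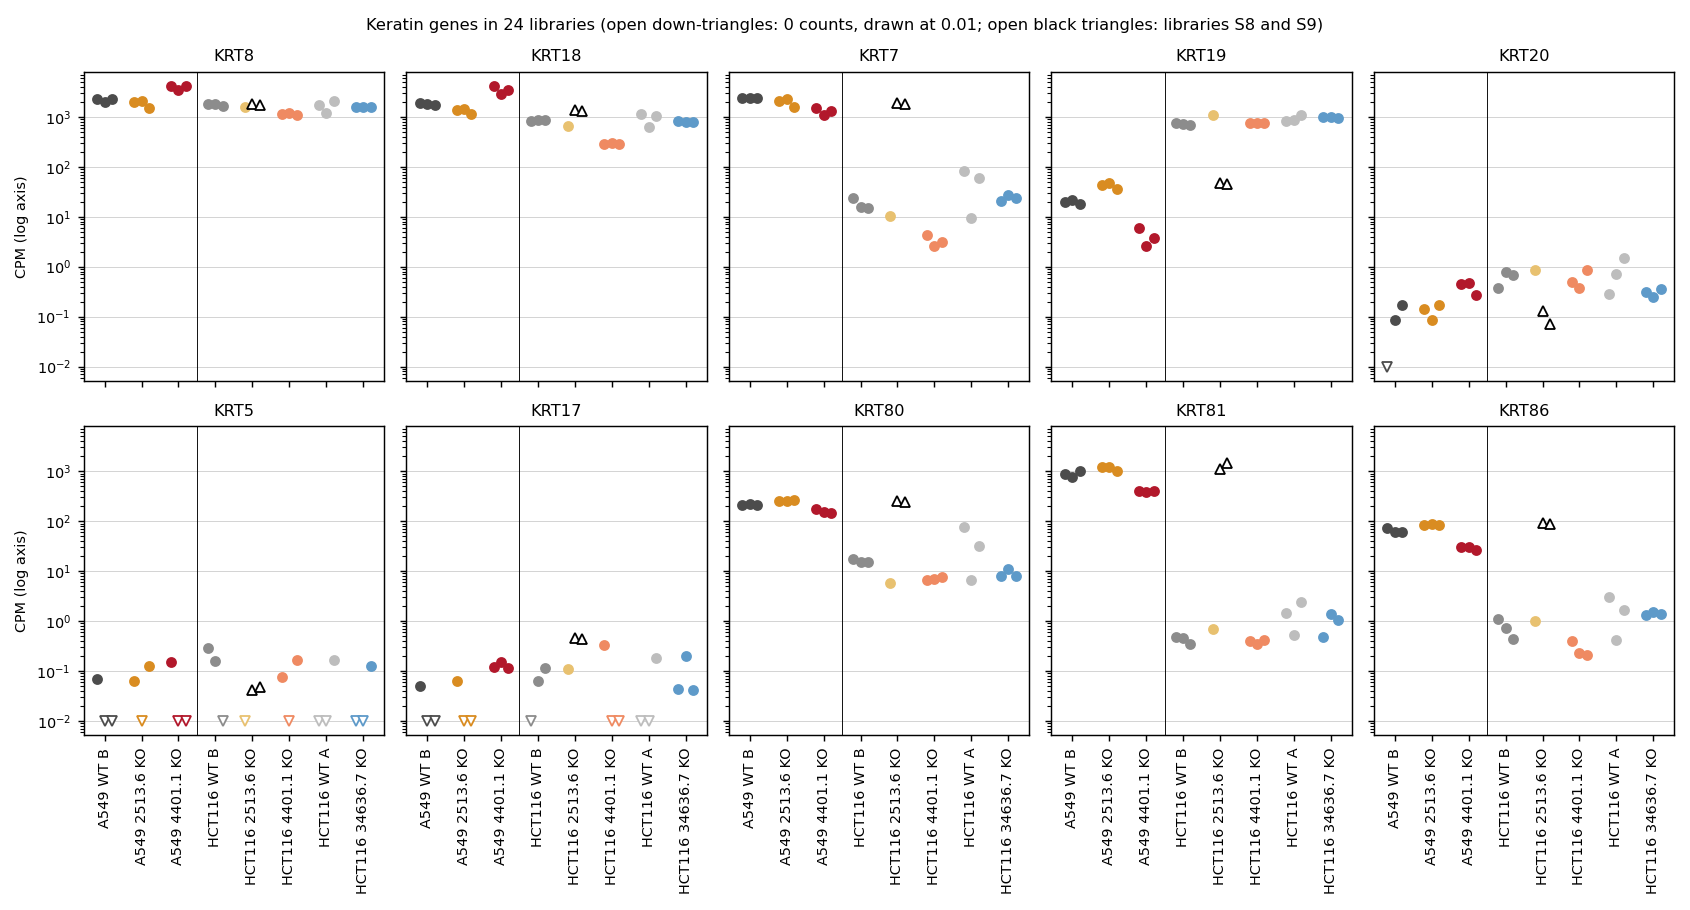
CPM (log axis) of the 10 keratin genes in each of the 24 libraries, by group, with A549 groups left and HCT116 groups right of the vertical line. Points are libraries, open down-triangles stand for 0 counts and open black triangles for S8 and S9, which lie with the A549 libraries for KRT7, KRT19, KRT80, KRT81 and KRT86.

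For levels compared between genes, CPM was divided by the length of the canonical transcript in kb. On this scale the 10 genes summed to 4545 ± 178 CPM per kb in A549 WT B, against 2125 ± 71.5 CPM per kb in HCT116 WT B (SD, n = 3). In bulk RNA, fewer cells with a keratin and less keratin RNA per cell cannot be told apart. Of the A549 WT B sum, 32.3% ± 0.683 was KRT7, 28.3% ± 1.28 was KRT18, 27.0% ± 0.906 was KRT8 and 10.2% ± 1.21 was KRT81. In HCT116 WT B, 45.7% ± 0.621 was KRT8, 28.7% ± 1.09 was KRT18 and 24.8% ± 0.581 was KRT19 (SD, n = 3), so that 3 genes made up nearly all keratin RNA of the list. The ratio of summed type II to summed type I members per kb was 2.49 ± 0.163 in A549 WT B and 0.869 ± 0.0246 in HCT116 WT B. The ratio of KRT8 to KRT18 per kb was 0.953 ± 0.0720 in A549 WT B and 1.60 ± 0.0791 in HCT116 WT B, with no overlap between the lines.

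**Figure D2:**
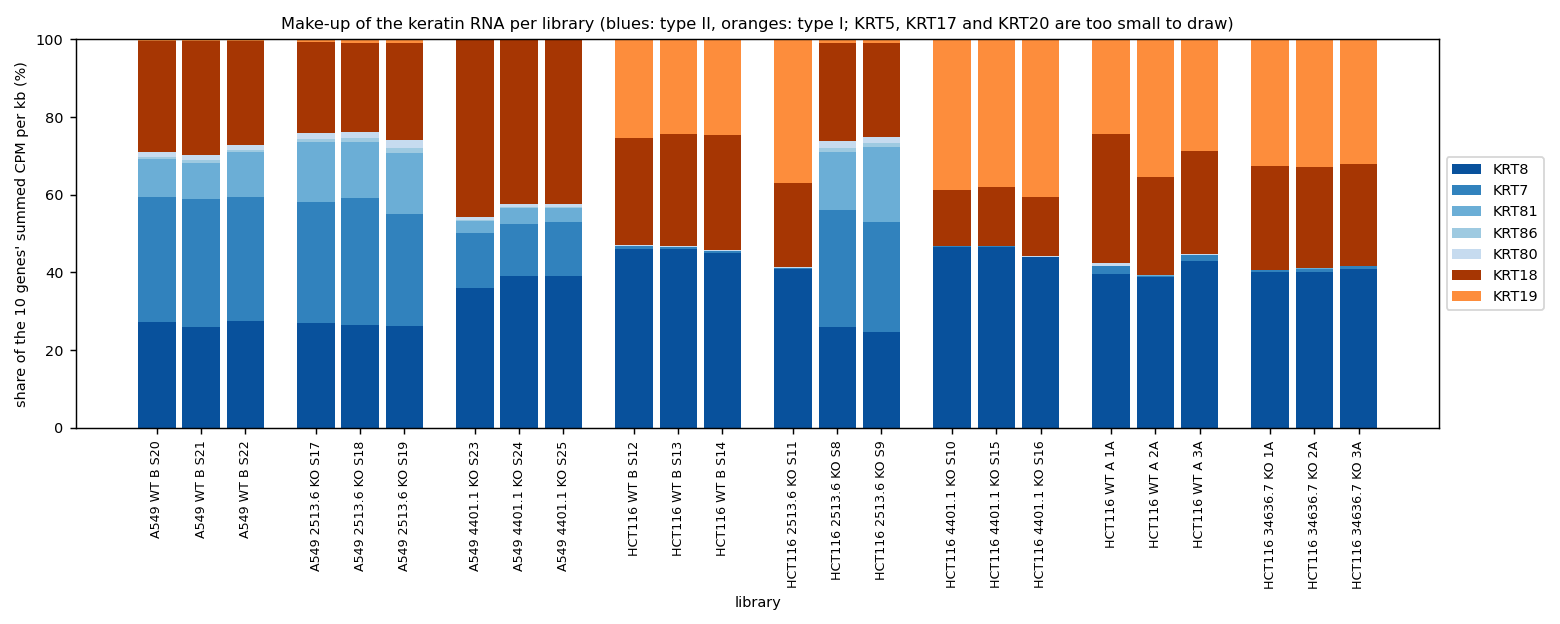
Share of each gene (%, y axis) in the summed CPM per kb of the 10 keratin genes, 1 stacked bar for each of the 24 libraries, with type II genes in blue and type I genes in orange. KRT19 takes 24.8% of the sum in HCT116 WT B and 0.318% in A549 WT B, where KRT7 and KRT81 fill 32.3% and 10.2%.

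Along chromosome 12, several genes with higher means in A549 WT B than in HCT116 WT B lay next to each other. Starting from KRT80, the neighbouring genes KRT7, KRT86, KRT81, KRT83 and KRT85 had mean levels between 5.09 and 2386 CPM in A549 WT B, against 0 to 18.05 CPM in HCT116 WT B. The genes that follow, from KRT84 to KRT78, were at 1.21 CPM or less in both wild types, and KRT8 and KRT18 at the end of the cluster were high in both. Among the type II keratins outside the 10, KRT83 and KRT85, which are hair keratins, were higher in A549 WT B (9.16 ± 2.86 and 5.09 ± 2.31 CPM, SD, n = 3), with KRT85 at 0 counts in HCT116 WT B. Of 4 such genes tested, 3 were called higher in A549, where 17.2% of all genes were. KRT83 and KRT85 entered the test only through their A549 counts, which fixed their direction. The same held for KRT4, whose wild-type means were 1.21 CPM in A549 and 0 in HCT116. The coding sequence of KRT83 is 93.2% identical to that of KRT81 and 91.0% to that of KRT86. Whether reads of these genes were counted for KRT83 was not tested. Of the 10 type I keratins tested outside the list, 9 were called lower in A549, led by KRT23 (0 counts in A549 WT B, 15.6 ± 1.19 CPM in HCT116 WT B) and KRT15, a basal keratin (0.810 ± 0.387 against 19.6 ± 1.76 CPM, SD, n = 3). Of all genes, 18.5% were called lower, and KRT23 and other type I genes at or near 0 in A549 WT B entered the test only through their HCT116 counts, which fixed their direction. Of 55 protein-coding keratin genes in both clusters, 11 had a mean of at least 1 CPM in each wild-type B group.

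**Figure D3:**
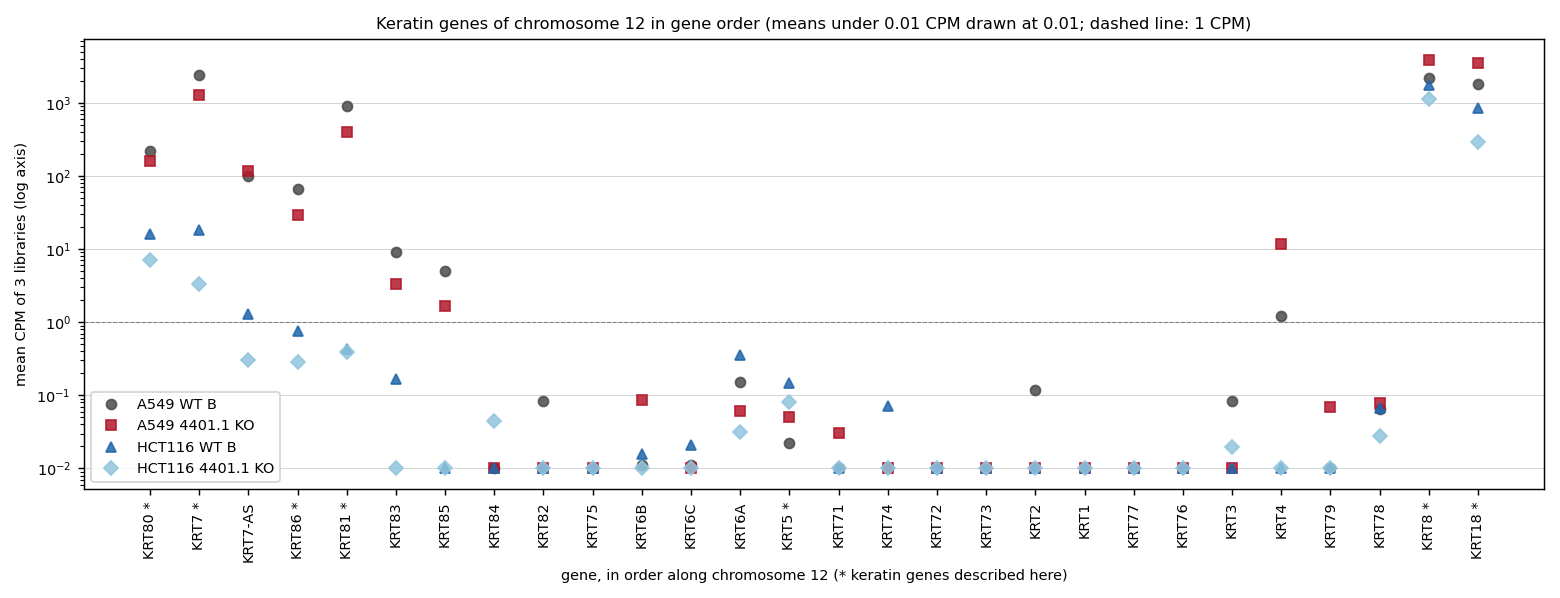
Mean CPM of 3 libraries (log axis) of the keratin genes of chromosome 12 in gene order, in the WT B and MSTRG.4401.1 KO groups of both lines, with means under 0.01 drawn at 0.01. KRT80 to KRT85 form a run of genes between 5.09 and 2386 CPM in A549 WT B, and KRT4 stands at 11.6 CPM in A549 MSTRG.4401.1 KO.

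MSTRG.4401.1 KO was made in both lines, and keratin levels differed from wild type in each. In A549, the KO libraries had less KRT19, KRT81 and KRT86 and values above wild type for KRT8 and KRT18. KRT19 was at 5.93, 2.56 and 3.81 CPM in S23, S24 and S25, against 19.7, 21.996 and 18.3 CPM in A549 WT B. It fell by 2.37 on the log2 scale (± 0.28, SE, adjusted p = 0.000886, edgeR quasi-likelihood test, Benjamini-Hochberg adjusted). KRT81 was at 402, 382 and 400.1 CPM in the KO libraries, all below the lowest wild-type value of 772 CPM, with a log2(fold change) of -1.25 ± 0.13 (SE, adjusted p = 0.000459). KRT86 was at 30.3, 30.7 and 26.1 CPM against 73.2, 62.1 and 61.1 CPM, a log2(fold change) of -1.26 ± 0.13 (SE, adjusted p = 0.000525). The ratio of KRT81 to KRT86 per kb was 15.9 ± 1.72 in the KO and 16.02 ± 2.99 in wild type (SD, n = 3), and whether reads of KRT81 were counted for KRT86 was not tested.

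The remaining tested genes passed the FDR threshold but not the fold threshold in A549 MSTRG.4401.1 KO. KRT8 was at 4135, 3390 and 4060 CPM against at most 2293 CPM in wild type, a log2(fold change) of 0.74 ± 0.15 (SE, adjusted p = 0.00876). KRT18 was at 4157, 2912 and 3481 CPM against at most 1903 CPM, a log2(fold change) of 0.87 ± 0.17 (SE, adjusted p = 0.00658). KRT7 was at 1483, 1066 and 1318 CPM, below every wild-type library, with a log2(fold change) of -0.97 ± 0.16 (SE, adjusted p = 0.00322) that lay next to the fold threshold and went beyond it under 6 of 13 alternatives. KRT80 had a log2(fold change) of -0.53 ± 0.11 (SE, adjusted p = 0.00717). Thus 3 of the 7 keratin genes tested were called, all 3 lower, where 4.32% of all 24979 genes were called lower, 11.1% higher and 15.4% in either direction. The median log2(fold change) was -0.97 over the 7 genes and 0.12 over all genes, and upper-quartile normalization moved the latter to 0.28. Under that scaling 3872 genes were called higher and 789 lower, against 2764 and 1078 in the main fit, and KRT18 was then also called at 1.03. Without WT B library S22 the count was 5, with KRT7 at -1.04 and KRT20 at 3.00 added, KRT20 being at 0.267 to 0.465 CPM in the KO. That fit called 3905 of 25843 genes. In the same libraries 6.10% ± 2.30 of counts were mitochondrial against 2.11% ± 0.221 in A549 WT B (SD, n = 3). Summed histone RNA was at 5485 to 9041 CPM against 8547 to 10363 CPM. Among epithelial markers, CDH1 averaged 132 against 64.0 CPM, without overlap. Mean EPCAM was higher (3.29 against 2.68 CPM) and mean CLDN4 lower (3.47 against 4.59 CPM), both with libraries that overlapped wild type. The part of these in the keratin values was not tested.

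The make-up of keratin RNA in A549 MSTRG.4401.1 KO differed accordingly. KRT8 and KRT18 together formed most of it, with 38.1% ± 1.80 and 43.5% ± 1.90, and KRT7 took 13.9% ± 0.354 (SD, n = 3). The ratio of type II to type I members was 1.19, 1.36 and 1.36 in the KO libraries against 2.45, 2.36 and 2.67 in WT B. The ratio of KRT7 to KRT8 was 0.365 ± 0.0254 against 1.20 ± 0.0668 (SD, n = 3), without overlap (exact permutation test, two-sided, p = 0.1, the smallest that 3 against 3 allows, and 0.2 after Benjamini-Hochberg adjustment over 12 tests of ratios). That of KRT8 to KRT18 was 0.878 ± 0.0780 against 0.953 ± 0.0720, with overlapping libraries (exact permutation test, p = 0.4). Among the type II keratins outside the 10, all 3 tested were called. KRT4, a keratin of wet stratified epithelia, rose from 1.21 ± 0.450 to 11.6 ± 1.42 CPM (SD, n = 3; log2(fold change) 3.14 ± 0.30, SE, adjusted p = 0.000326), and KRT83 and KRT85 fell by 1.58 and 1.70 on the log2 scale. Whether reads of KRT81 were counted for KRT83 was not tested. Of the 3 type I keratins tested outside the list, edgeR called 0, with 1 at an unadjusted p below 0.05, as were 11322 of all 24979 genes.

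**Figure D4:**
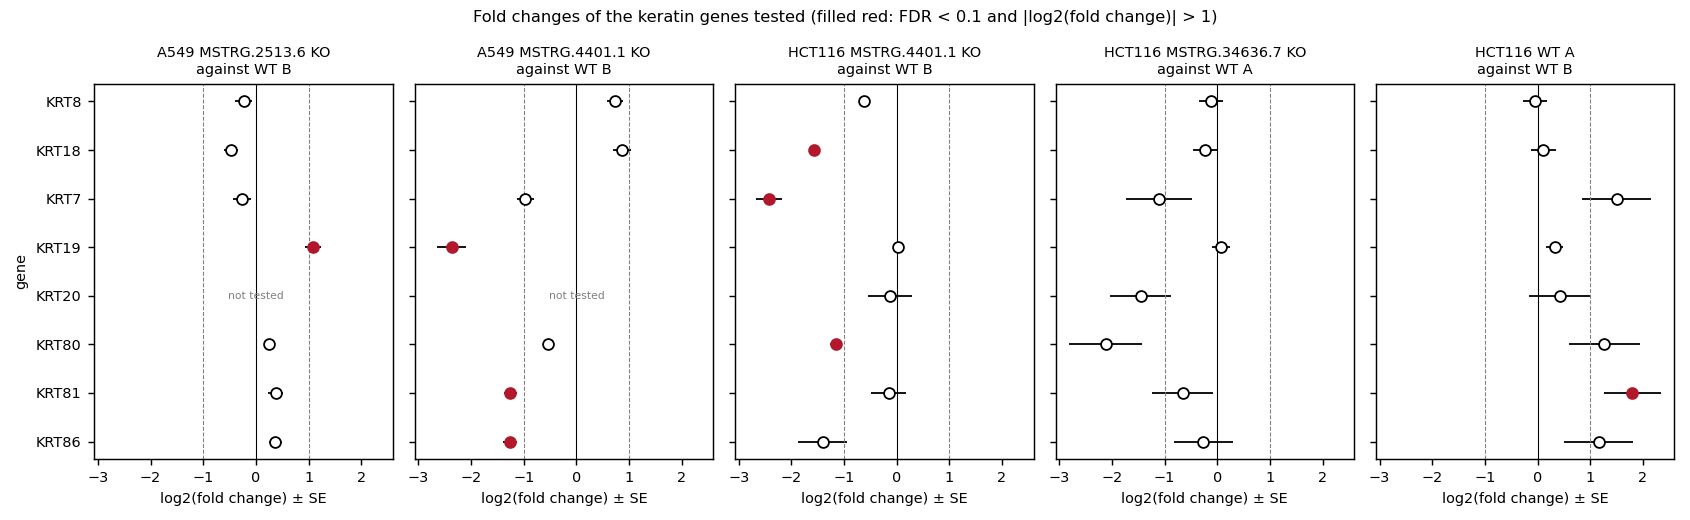
Log2(fold change) with its SE (x axis) of the 8 keratin genes that could be tested, in 4 KO comparisons and in WT A against WT B of HCT116, with dashed lines at 1 and -1. Filled red points passed both thresholds, and KRT8 and KRT18 lie right of 0 in A549 MSTRG.4401.1 KO (0.74 and 0.87) and left of it in HCT116 MSTRG.4401.1 KO (-0.63 and -1.57).

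KRT18, KRT7 and KRT80 fell in the HCT116 KO of MSTRG.4401.1, while KRT19 lay within the range of its wild type. KRT18 was at 284, 302 and 292 CPM in S10, S15 and S16 against 843, 881 and 855 CPM in HCT116 WT B. Its log2(fold change) was -1.57 ± 0.05 (SE, adjusted p = 6.09e-06, edgeR quasi-likelihood test, Benjamini-Hochberg adjusted). KRT7 was at 4.38, 2.58 and 3.16 CPM against 23.6, 15.6 and 14.9 CPM, a log2(fold change) of -2.42 ± 0.25 (SE, adjusted p = 0.00122). KRT80 was at 6.63, 7.13 and 7.77 CPM against 17.2, 15.5 and 14.96 CPM, a log2(fold change) of -1.16 ± 0.10 (SE, adjusted p = 0.000574). These 3 genes had no overlap between KO and wild type. In the same libraries summed histone RNA was at 10683 to 12020 CPM against 7223 to 7645 CPM in wild type, and the epithelial markers CDH1 (49.5 against 99.9 CPM), EPCAM (131 against 182 CPM) and CLDN4 (100.1 against 155 CPM) were lower on average without overlap. Their part in the keratin values was not tested. KRT8 was at 1151, 1171 and 1067 CPM, below every wild-type library, and passed the FDR threshold alone with a log2(fold change) of -0.63 ± 0.06 (SE, adjusted p = 0.00096). KRT19 was at 744, 743 and 767 CPM, within the range of its wild-type libraries, and its log2(fold change) was 0.02 ± 0.04 (SE, adjusted p = 0.828). KRT86 was at 0.207 to 0.407 CPM against 0.433 to 1.13 CPM, a log2(fold change) of -1.41 ± 0.46 (SE) just outside the threshold with adjusted p = 0.102, and KRT81 and KRT20 had log2(fold change) of -0.15 and -0.13.

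Of the 8 genes tested, 3 were called in HCT116 MSTRG.4401.1 KO, all 3 lower, where 1.62% of 26615 genes were called lower, 0.996% higher and 2.62% in either direction. The median log2(fold change) was -0.90 over the 8 genes and 0.00 over all genes. In a fit of all HCT116 libraries, which includes S8 and S9, 0 keratin genes were called, and in the same fit without S8 and S9 KRT7 (-2.43) and KRT18 (-1.57) were. Over all genes these fits called 27 of 30014 and 411 of 32892. Against WT A in place of WT B the count was 5, with KRT81 and KRT86 added at -1.96 and -2.58, where 2743 of 26786 genes were called. The ratio of KRT8 to KRT18 per kb was 3.21, 3.07 and 2.90 in the KO libraries against 1.68, 1.60 and 1.52 in WT B (exact permutation test, two-sided, p = 0.1, the smallest possible). KRT19 took 39.0% ± 1.34 of the keratin sum and KRT18 14.9% ± 0.398, while the ratio of type II to type I members, 0.853 ± 0.0509, overlapped that of WT B, 0.869 ± 0.0246 (SD, n = 3).

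The difference between the lines in the effect of MSTRG.4401.1 KO was tested directly as an interaction over 12 libraries. It passed FDR < 0.1 for 6 of the 8 genes tested, where 26.9% of 30134 genes did (3490 higher and 4626 lower in A549, or 4642 and 3729 with upper-quartile normalization). The effect of the KO on KRT18, A549 minus HCT116, was 2.40 ± 0.19 on the log2 scale (SE, adjusted p = 9.03e-06, edgeR's quasi-likelihood test). That on KRT8 was 1.34 ± 0.17 (SE, adjusted p = 0.000321). For both genes of the founding pair the A549 KO libraries lay above and the HCT116 KO libraries below all libraries of their wild type. For KRT19 the difference was -2.41 ± 0.29 (SE, adjusted p = 0.000204). KRT7 and KRT80 were lower than wild type in the KO of both lines, with a difference of 1.42 ± 0.30 and 0.59 ± 0.13 (SE). KRT81 had a difference of -1.14 ± 0.22 (SE, adjusted p = 0.00429), with only 15 to 30 counts in each HCT116 library of these groups. KRT86 did not pass (0.09 ± 0.39, SE, adjusted p = 0.931), nor did KRT20 (adjusted p = 0.117).

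**Figure D5:**
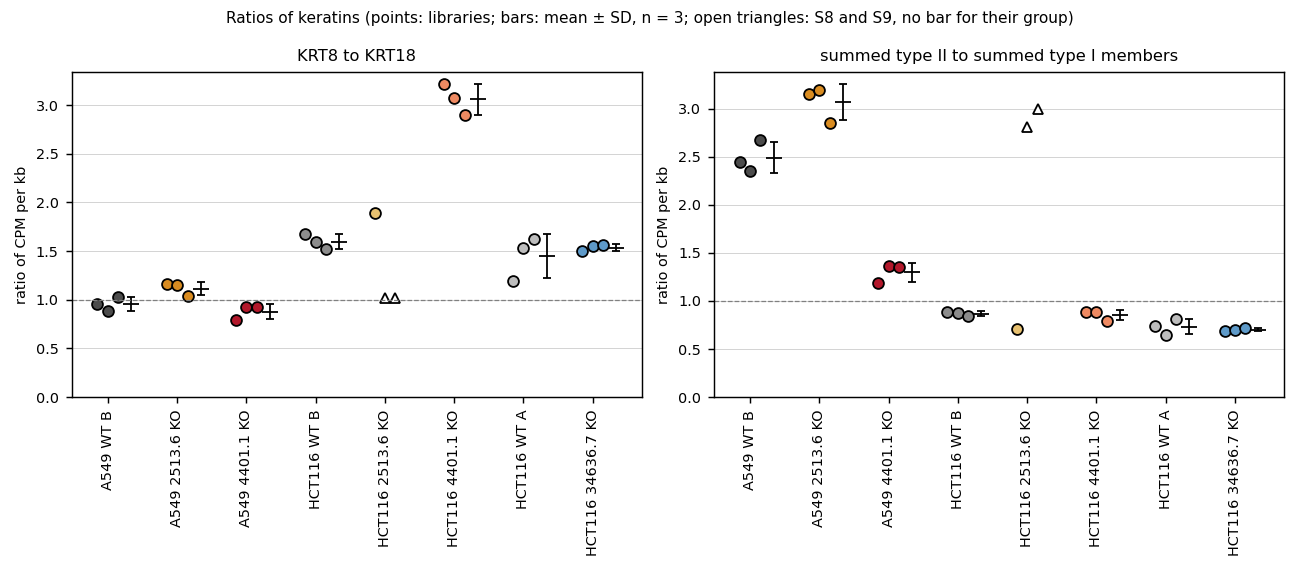
Ratios of CPM per kb (y axis) by group, KRT8 to KRT18 on the left and summed type II to summed type I members on the right, with libraries as points and mean ± SD (n = 3) as bars. HCT116 MSTRG.4401.1 KO stands at 3.06 ± 0.159 in the left panel, and A549 MSTRG.4401.1 KO at 1.30 ± 0.0988 in the right panel against 2.49 ± 0.163 in A549 WT B.

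A549 MSTRG.2513.6 KO was compared with the same A549 WT B libraries as MSTRG.4401.1 KO, so these comparisons are not independent. KRT19 was at 42.3, 48.5 and 36.7 CPM in S17, S18 and S19, all above the highest wild-type value of 21.996 CPM, and rose by 1.09 ± 0.16 on the log2 scale (SE, adjusted p = 0.0107, edgeR quasi-likelihood test, Benjamini-Hochberg adjusted). It was the only 1 of 7 keratin genes tested that was called, where 1.13% of 25666 genes were called higher, 1.79% lower and 2.92% in either direction. The call was lost when S18 or WT B library S22 was left out, with the lowest log2(fold change) at 0.98 and the highest adjusted p over all alternatives at 0.0553. KRT18 was at 1369, 1411 and 1166 CPM, below every wild-type library, but its log2(fold change) of -0.47 ± 0.13 (SE) had adjusted p = 0.121. KRT80 and KRT86 also lay outside the range of wild type, at 252 to 264 CPM and 82.3 to 87.8 CPM, with log2(fold change) of 0.25 and 0.37 and adjusted p of 0.222 and 0.200. KRT7 was at 1545 to 2297 CPM, also below every wild-type library, with adjusted p = 0.505. KRT8 and KRT81 overlapped wild type and had adjusted p of 0.518 and 0.250. The median log2(fold change) was 0.25 over the 7 genes and -0.03 over all genes. Keratin RNA in this KO was 30.9% ± 1.85 KRT7 and 15.3% ± 0.599 KRT81, and the ratio of type II to type I members was 2.86 to 3.19 against 2.36 to 2.67 in WT B, without overlap. The ratio of KRT8 to KRT18 was 1.04 to 1.16 against 0.881 to 1.03, also without overlap (exact permutation test, two-sided, p = 0.1, the smallest possible).

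Under the label HCT116 MSTRG.2513.6 KO stood libraries with very different keratin levels. KRT7 was at 10.5 CPM in S11 but at 1908 and 1777 CPM in S8 and S9, KRT81 at 0.688, 1136 and 1446 CPM, and KRT19 at 1088, 46.5 and 45.1 CPM in the same order. For the last gene, S8 and S9 lay within the range of A549 MSTRG.2513.6 KO (36.7 to 48.5 CPM). S11 lay above all HCT116 WT B libraries but within the range of WT A (823 to 1090 CPM). KRT80 was at 5.89 CPM in S11 and at 6.70 to 75.9 CPM in WT A. Summed histone RNA was at 2561 CPM in S11 against 7223 to 7645 CPM in HCT116 WT B, and its part in the keratin values was not tested. With edgeR 0 of 8 keratin genes were called (0.933% of 26374 genes were, 0.66% higher and 0.273% lower). In that fit 4 of the 8, and 5456 of all 26374 genes, had an unadjusted p below 0.05. DESeq2 called 4, where it called 2785 of 26374 genes. Without S8 and S9, a fit that rests on the lone library S11 and assumes that it varies like wild type, KRT80 was called lower (5.89 CPM against 14.96 to 17.2 CPM, log2(fold change) -1.52, adjusted p = 0.00243), KRT18 and KRT19 passed the FDR threshold alone at -0.49 and 0.48, and the direction turned for KRT7, KRT8, KRT80, KRT18, KRT19 and KRT20. Without S11 the count was 7, with KRT17 among them, where 10636 of 28577 genes were called. KRT17 was at 0.466 and 0.430 CPM in S8 and S9, the highest values of this gene in the series, from 22 and 18 counts.

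The wild type against which MSTRG.34636.7 KO was set, WT A, had libraries that varied widely. KRT7 was at 82.5, 9.23 and 60.1 CPM in WT A libraries 1A, 2A and 3A and at 20.4, 27.8 and 24.2 CPM in the KO, within the range of WT A. KRT80 was at 75.9, 6.70 and 31.8 CPM in WT A and 8.05, 10.8 and 7.96 CPM in the KO. Its log2(fold change) was -2.12 ± 0.70 (SE) with adjusted p = 0.219 (edgeR's quasi-likelihood test). None of the 8 genes tested was called (1.34% of 28816 genes were, 0.729% higher and 0.607% lower), and DESeq2 called 0. In the edgeR fit 2 of the 8, and 4319 of all 28816 genes, had an unadjusted p below 0.05. Without WT A library 2A, KRT7 (-1.60) and KRT80 (-2.62) were called, and against WT B in place of WT A KRT81 (1.14) and KRT20 (-1.03) were. Over all genes these fits called 746 of 30726 and 4059 of 27971. KRT8, KRT18 and KRT19 were at 1549 to 1563, 791 to 820.2 and 956 to 988 CPM in the KO, with log2(fold change) between -0.23 and 0.07.

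Both wild-type sets of HCT116 were themselves compared, since they serve as controls. KRT81 was called higher in WT A (1.49, 0.530 and 2.42 CPM against 0.349 to 0.477 CPM, log2(fold change) 1.80 ± 0.54, SE, adjusted p = 0.0910, edgeR's quasi-likelihood test), from 26 to 247 counts per WT A library. It was 1 of 8 genes tested, where 7.06% of 27280 genes were called, 3.16% higher and 3.9% lower in WT A. The call was lost in 5 of 6 fits with a library left out. Without WT A library 2A KRT7 (2.00), KRT80 (1.77), KRT81 (2.21) and KRT86 (1.62) were called, where 2191 of 28473 genes were. KRT8, KRT18 and KRT19 had log2(fold change) of -0.05, 0.11 and 0.32, none past FDR < 0.1. KRT10, a keratin of the upper epidermis outside the list, was called lower in WT A, at 2.94 ± 0.821 CPM against 21.3 ± 1.30 CPM (SD, n = 3; log2(fold change) -2.86 ± 0.24, SE, adjusted p = 0.000205), and it was at 2.47 ± 0.173 CPM in MSTRG.34636.7 KO, which shares the numbering of WT A. Mean KRT10 in the groups of libraries with S numbers, of both lines, spanned 11.9 CPM (A549 MSTRG.4401.1 KO) to 21.3 CPM (HCT116 WT B). Numbering and wild-type set cannot be told apart in the HCT116 wild types.

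Genes whose products connect keratins to cell junctions, or act on keratin genes, were described from lists. From the hemidesmosome and laminin-332 list, LAMA3, a laminin alpha chain, was at 30.1 ± 10.1 CPM in A549 MSTRG.4401.1 KO against 68.8 ± 8.38 CPM in wild type (SD, n = 3), a log2(fold change) of -1.26 ± 0.23 (SE, adjusted p = 0.00530). In HCT116 MSTRG.4401.1 KO, 4 of the 8 genes of this list were called, all lower, where 1.62% of all genes were called lower and 2.62% in either direction, among them LAMA3 and COL17A1, a transmembrane collagen of hemidesmosomes, at log2(fold change) of -1.09 and -1.20. Of the desmosome and plakin genes, 2 of 13 tested were called higher in A549 MSTRG.4401.1 KO, a share near the 11.1% of all genes called higher there. They were DSC3 (desmocollin, log2(fold change) 1.56) and PLEC (plectin, 1.05 ± 0.43, SE, adjusted p = 0.0893, edgeR quasi-likelihood test). PLEC spanned 631 to 836 CPM in the KO and 119 to 488 CPM in wild type. In HCT116 MSTRG.4401.1 KO, 0 of 15 were called by edgeR. An unadjusted p below 0.05 was found there for 10 of the 15 and for 6836 of all 26615 genes. In A549 MSTRG.2513.6 KO, DSC2 fell by 1.97 on the log2 scale, and LAMB3, EPPK1 and the transcription factor GRHL3 rose (1.32, 1.48 and 1.48), while HNF4A, a factor of liver and gut, was at 34.3 ± 0.882 against 72.3 ± 6.32 CPM (SD, n = 3). These were the only calls there among 13 desmosome and plakin, 8 hemidesmosome and laminin-332 and 15 regulator genes tested. Of all genes, 1.13% were called higher and 1.79% lower. GRHL2, a factor that maintains epithelial junctions, was at 24.1 ± 0.345 CPM in HCT116 MSTRG.4401.1 KO against 52.4 ± 1.63 CPM in WT B (log2(fold change) -1.13), and had 0 counts in all A549 WT B libraries. Between the wild types, VIM, the intermediate filament protein of mesenchymal cells, was at 1483 ± 73.1 CPM in A549 and 1.46 ± 0.413 CPM in HCT116 (SD, n = 3; log2(fold change) 10.25 ± 0.24, SE), among 7 higher and 3 lower of 15 other intermediate filament genes tested, where 17.2% of all genes were called higher and 18.5% lower. INA and NEFL, among those called higher, averaged 37.4 and 10.3 CPM in A549 WT B and 0.0381 and 0.0208 CPM in HCT116 WT B. Both entered the test only through their A549 counts, which fixed their direction. The medians of the desmosome, hemidesmosome, other intermediate filament and regulator lists lay between -0.93 and 0.55 on the log2 scale over the 5 KO comparisons and WT A against WT B, and these genes were tested only singly.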

How the data were processed

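Strand-specific, rRNA-depleted RNA-seq was made from A549 and HCT116. The authors deposited raw counts per gene symbol for each library. Per the submitters' processing notes, reads were handled with FastQC 0.11.9, Trim Galore 0.6.6 and HISAT2 2.2.1 on hg38, and the study's methods name StringTie. Its version, the annotation release and the strand setting of counting are not given in the sources used here. CPM was computed from library totals, and CPM per kb with GENCODE canonical transcript lengths. Each comparison was fitted across all genes with edgeR 4.0.16 (R 4.3.3, limma 3.58.1): TMM, its expression filter, the quasi-likelihood test and Benjamini-Hochberg adjustment, with FDR < 0.1 and |log2(fold change)| > 1 as thresholds. The fit was tested on simulated data. Ratios had two-sided exact permutation tests. Alternatives were DESeq2 1.42.0, upper-quartile scaling, other filters and thresholds, joint fits, the other wild type, a replicate block and each library left out. All 10 genes were named, and from each list (other type I and type II keratins, desmosome and plakin, hemidesmosome and laminin-332, other intermediate filament proteins, regulators) at most 3 called genes by fold change whose groups did not overlap and whose average log2 CPM was at least 1. Members and lists were chosen with earlier results of these data known. SE came from the edgeR fits and SD from the libraries of a group, so both include the spread between libraries. The CPM values given for 3 counts reflect library totals only. The values of 1 listed gene that the rule names are not reported here.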

Additional observations from a re-analysis of the deposited data

Results flagged for a closer look

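For 6 genes the log2(fold change) of MSTRG.4401.1 KO differed between the lines by edgeR's quasi-likelihood test of the interaction. A549 minus HCT116 was 2.40 for KRT18, 1.34 for KRT8, 1.42 for KRT7 and 0.59 for KRT80. It was -1.14 for KRT81 and -2.41 for KRT19. All 6 passed FDR < 0.1 under 17 of 17 alternatives.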

How the results depend on the processing

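Of 913 values recomputed under alternatives, 827 kept direction and side of the threshold, 45 passed it newly, 15 no longer passed and 26 turned direction, and the cause was not tested. Leaving out 1 library at a time gave 0 to 1 keratin calls in A549 MSTRG.2513.6 KO, 3 to 5 in A549 MSTRG.4401.1 KO, 0 to 7 in HCT116 MSTRG.2513.6 KO, 0 to 2 in MSTRG.34636.7 KO and 0 to 4 in WT A against WT B. Over all genes these fits called 451 to 791, 2960 to 4124, 0 to 10636, 80 to 746 and 1535 to 2191, in the same order. With no fold threshold A549 MSTRG.4401.1 KO had 7. HCT116 MSTRG.2513.6 KO had 4 with DESeq2, 2 with at least 10 counts in every library, 4 in a fit of all HCT116 libraries and 1 without S8 and S9, where KRT7 (-0.86), KRT8 (-0.25), KRT80 (-1.52), KRT18 (-0.49), KRT19 (0.48) and KRT20 (0.36) turned direction. HCT116 MSTRG.4401.1 KO had 0 in the fit of all HCT116 libraries and 5 against WT A, where KRT19 was at -0.31. MSTRG.34636.7 KO had 2 against WT B, with KRT7 at 0.40, KRT81 at 1.14 and KRT86 at 0.89, and 1 in the fit without S8 and S9, an alternative chosen after seeing the data. WT A against WT B had 0 with no filter, with FDR < 0.05, and in the fit of all HCT116 libraries, and 2 in that fit without S8 and S9. Upper-quartile scaling put KRT8 at 0.0098 there and moved the median of all genes to 0.11. With 1 library left out, values that turned direction ranged from -0.015 to 0.045 (KRT19) and -0.49 to 0.11 (KRT20) in HCT116 MSTRG.4401.1 KO, -0.34 to 0.11 (KRT8), -0.72 to 0.38 (KRT86) and -0.018 to 0.24 (KRT19) in MSTRG.34636.7 KO, -0.28 to 0.16 (KRT8), -0.066 to 0.35 (KRT18) and -0.38 to 0.82 (KRT20) in WT A against WT B, and -0.27 to 0.48 (KRT86) in the interaction. Deviations of same-numbered libraries from their group means had r of 0.00908, 0.0273 and 0.0640 for MSTRG.34636.7 KO and WT A. For WT A and WT B r was 0.0115, -0.0332 and -0.0671, and for the wild types of both lines -0.157, -0.0214 and -0.0143. With 3 libraries per group, these values cannot decide whether the numbers pair the libraries. With the replicate block, MSTRG.34636.7 KO had 166 genes called in place of 385, with KRT86 at 0.040, and WT A against WT B had 0 keratin calls. Over all genes, calls with no fold threshold numbered 1531 (A549 MSTRG.2513.6 KO, in place of 750), 10925 (A549 MSTRG.4401.1 KO, 3842), 375 (HCT116 MSTRG.2513.6 KO, 246), 4336 (HCT116 MSTRG.4401.1 KO, 697), 619 (MSTRG.34636.7 KO, 385), 3348 (WT A against WT B, 1926) and 17549 (between the lines, 9962). Between the lines 5418 were called with at least 10 counts in every library. A549 MSTRG.2513.6 KO had 497 without S20 and 451 without S21. HCT116 MSTRG.2513.6 KO had 2785 with DESeq2, 6 with no filter, 975 with at least 10 counts, 1 at FDR < 0.05, 3487 in the fit of all HCT116 libraries, 900 against WT A, 2625 without S8 and S9, 10636 without S11 and 0 without any other library. HCT116 MSTRG.4401.1 KO had 27 in the fit of all HCT116 libraries, 411 in that fit without S8 and S9 and 2743 against WT A. MSTRG.34636.7 KO had 887 with DESeq2, 145 at FDR < 0.05, 90 and 888 in both joint fits, 4059 against WT B, 80 to 92 without a KO library and 746 without WT A library 2A.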
